A study of Mus musculus with 2 samples.

Results

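The genes described here encode the core-binding factors and the Ikaros family, together with CBFA2T3, a corepressor of the ETO family. They are 10 genes of the 55487 listed, chosen by name and found through the Ensembl IDs of their GRCm38 symbols: Runx1, Runx2, Runx3, Cbfb, Cbfa2t3, Ikzf1, Ikzf2, Ikzf3, Ikzf4 and Ikzf5. Messenger RNA was sequenced from colonies grown out of lineage-negative bone marrow of C57BL/6 mice, a fraction enriched for stem and progenitor cells. In both groups the cells had been infected with the retroviral vector pMYs-IG, sorted for green fluorescence 3 days later and kept in the methylcellulose medium M3434 for about 3 weeks. One group carried pMYs-IG_3xHA-EVI1+18, an HA-tagged product of aberrant EVI1 splicing, and the other pMYs-IG_3xHA-EVI1-WT, the HA-tagged wild-type form. EVI1 is the zinc finger transcription factor of the Mecom locus. In both groups the tagged protein came from the retroviral vector, in cells that kept their own Mecom locus, and no EVI1-free culture is among the samples analysed here. Mecom itself had 4481 counts in EVI1+18 and 3612 in EVI1-WT, a ratio of 1.16 (1.11 to 1.21), a gene total that does not separate the splice forms. Each group had 1 library, with 20981903 counts for EVI1+18 and 20480447 for EVI1-WT. No difference below therefore has a replicate check, and all intervals are 95% counting intervals, which compare the libraries rather than the vectors. In bulk RNA, fewer cells of a type and less RNA per cell cannot be told apart.

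RUNX1, RUNX2 and RUNX3 are the DNA-binding alpha subunits of core-binding factor, and CBFB is the shared beta subunit that stabilises them on DNA. RUNX1 is needed to form blood stem cells and later for platelets and lymphocytes, RUNX2 is the master regulator of bone formation, and RUNX3 acts in T cells and other leukocytes. CBFA2T3, also called ETO2, does not bind DNA itself and represses genes within complexes built on TAL1, GATA factors, LMO2 and LDB1. IKZF1 (Ikaros), IKZF2 (Helios), IKZF3 (Aiolos), IKZF4 (Eos) and IKZF5 (Pegasus) are zinc finger proteins that pair with one another and recruit chromatin-remodelling complexes, with central roles in lymphocyte development. RUNX1, CBFB, ETO2 and Ikaros genes are recurrent targets of rearrangement or deletion in human leukaemia, and EVI1 itself is fused to RUNX1 in some cases.

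The promoters of the 3 RUNX genes share a string of letters that holds the core motif bound by the family itself. Promoter windows of RefSeq genes (250 bases before to 50 after a start site, build GRCm38.p6) were available for 7 of the 10 genes, in 11 windows. The longest string common to the upstream windows of Runx1 and Runx3 and the single window of Runx2 was 18 bases long. It is shown in capitals with its flanks, read along the strand of each gene, for chr16:92826025-92826054 (minus strand), chr17:44814583-44814612 (minus strand) and chr4:135120503-135120532 (plus strand).
Runx1: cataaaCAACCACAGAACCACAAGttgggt
Runx2: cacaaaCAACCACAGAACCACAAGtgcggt
Runx3: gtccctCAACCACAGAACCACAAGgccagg
The string holds 2 copies of the RUNX core motif TGTGGT on its reverse strand, with 2 bases between them. It lay 26 to 43 bases after the start site in Runx1, 21 to 38 after it in Runx2, and from -136 to -119 in Runx3. Of 32851 windows searched on both strands, 4 held it, those of the 3 RUNX genes and that of Gm16225, a non-coding gene that starts just upstream of Runx3 on the other strand. The 3 RUNX windows held it by definition. That of Gm16225 may hold the same genomic bases as that of Runx3, which was not checked. TGTGGT alone stood in 16.8% of all windows. Among the 11 windows of these genes it was found only in the 3 RUNX windows, where the string already places it. The match describes letters in these windows and shows no binding.

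Cbfa2t3 was picked after its RNA was seen to be higher in EVI1+18, as was that of Gata1 and Tal1 (below). Its upstream window holds, on the reverse strand, an E-box CAGCTG followed after 8 bases by the GATA letters TGATAA, the spacing class at which TAL1 and GATA proteins are known to bind as 1 complex. The stretch at chr8:122699158-122699257 (minus strand) runs from -148 to -49, with both motifs of the pair in capitals. A further CAGCTG, near the first base of the stretch, is left in small letters.
Cbfa2t3: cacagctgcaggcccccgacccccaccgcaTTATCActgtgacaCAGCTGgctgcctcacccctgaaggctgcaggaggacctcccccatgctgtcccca
The pair of CAGCTG and TGATAA at this spacing and in this order occurred in 3 of all windows (0.00913%), CAGCTG in 16.3% and TGATAA in 9.05%. Only the letters, spacing and order of the Cbfa2t3 window were counted for the pair. Other E-box letters and gaps were not, so the share does not measure how unusual this window is. The Ikaros core TGGGAA occurred in 25.6% of windows, among them the upstream windows of Runx3 and Cbfa2t3. The GATA-type letters AGATAA, which form part of the sequence that EVI1 is known to recognise, were in 11.2% of windows and in 0 of the 11. A match or its absence does not show whether a factor was bound, and no link between these letters and the RNA values was tested.

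The colonies held RNA of several blood lineages in unlike amounts, and the part of this in the differences described here was not tested. Levels are in scaled CPM, the CPM unit after TMM scaling of the library sizes. A gene is called 2-fold apart when its whole counting interval lies beyond 2-fold. Summed over 15 erythroid markers, the level was 13730 scaled CPM in EVI1+18 and 1796 in EVI1-WT, with 13 of 15 at least 2-fold higher and none at 0 counts. Most of each sum came from the globin genes Hba-a1, Hba-a2, Hbb-bs and Hbb-bt, with Hba-a1 at 3495 in EVI1+18 and 323 in EVI1-WT. Of 10 tested megakaryocyte and platelet markers (12 in the list), 8 were at least 2-fold higher, and the list summed to 1949 scaled CPM in EVI1+18 and 737 in EVI1-WT. Among 12 tested markers of mast cells and basophils, 8 passed 2-fold downward and 2 upward, and the list summed to 842 in EVI1+18 and 5651 in EVI1-WT, with Tpsab1 at 0 in both. Among 6 tested eosinophil markers 5 were lower and 1 higher (sum 176 in EVI1+18, 866 in EVI1-WT), and 7 of 13 tested neutrophil markers were lower and 0 higher (1957 in EVI1+18, 5132 in EVI1-WT). Monocyte, macrophage and dendritic cell markers were 4 higher and 2 lower of 10 tested (1711 in EVI1+18, 1266 in EVI1-WT). Most of the EVI1+18 sum was Gpnmb, 1 of the 4 higher (1214 in EVI1+18, 242 in EVI1-WT). The 2 lower were Ly6c2 (101 in EVI1+18, 463 in EVI1-WT) and Adgre1 (94.4 in EVI1+18, 246 in EVI1-WT). Stem and progenitor markers were 4 higher and 1 lower of 8 (123 in EVI1+18, 130 in EVI1-WT). The lower one, Ly6a, was no longer called with libraries scaled by total counts. The B cell list summed to 2.70 scaled CPM in EVI1+18 and 3.60 in EVI1-WT, with Ebf1, Ms4a1 and Pax5 among the markers at 0 in both. Most of that sum was Cd79b, at 2.10 in EVI1+18 and 3.25 in EVI1-WT. T and NK cell markers summed to 25.4 in EVI1+18 and 36.7 in EVI1-WT, nearly all of it Nkg7 (23.6 in EVI1+18, 33.0 in EVI1-WT), with Bcl11b, Cd4, Cd8a and Ncr1 at 0 in both. The T cell kinase gene Lck was at 1.35 scaled CPM in EVI1+18 and 3.25 in EVI1-WT. Ikzf1, Ikzf2 and Runx3 were thus measured in libraries in which most B and T cell markers were at or near 0. Cd79b and Lck were low but reached 1 scaled CPM.

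**Figure D1:**
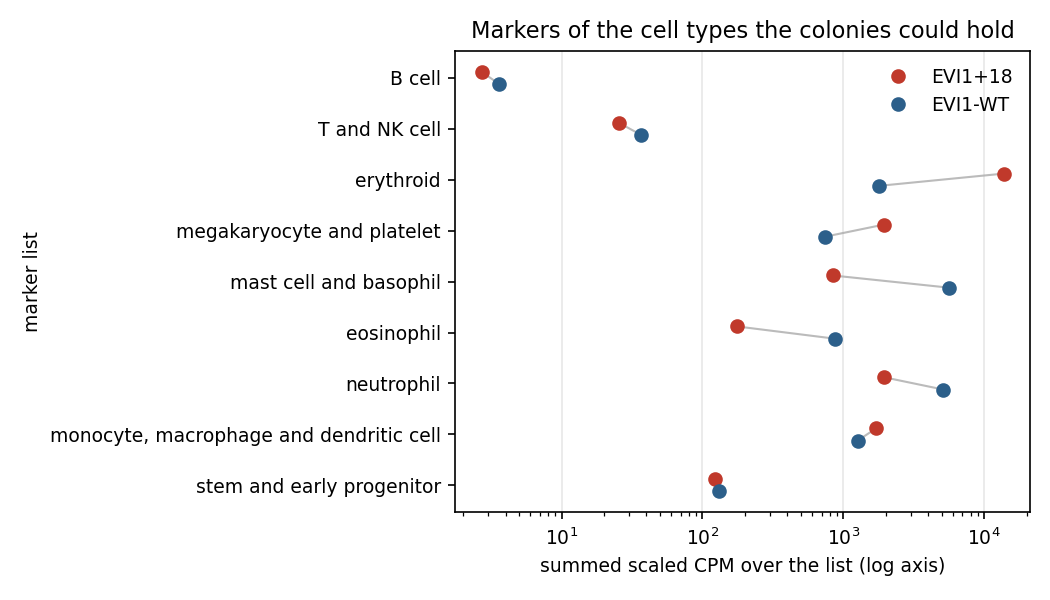
Summed scaled CPM (log axis) of each marker list in EVI1+18 and EVI1-WT, with 1 point a library and a grey line joining the pair. The erythroid sum, mostly globin, is 13730 in EVI1+18 and 1796 in EVI1-WT. The mast cell and basophil sum is 842 in EVI1+18 and 5651 in EVI1-WT.

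Of the 10 genes, 9 reached 1 scaled CPM in a library and were tested. Among these, 1 was at least 2-fold lower in EVI1+18 with its whole counting interval beyond that fold, Ikzf2, and 0 were at least 2-fold higher. Over the 13183 genes tested, 5.1% were lower and 5.05% higher by this rule, 10.1% in all, so the share of these factors past 2-fold was near that of all genes. At 1.5-fold the count was again 1 lower and 0 higher, against 9.79% lower and 8.29% higher over all genes, 18.1% in either direction. The interval left out equality for 7 of the 9, with 4 lower and 3 higher, as it did for 66.2% of all tested genes. The median log2 ratio of the 9 was -0.13, beside 0.01 over all tested genes, whose quartiles were -0.32 and 0.30. Most of these factors thus differed between the libraries by less than 2-fold.

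**Figure D2:**
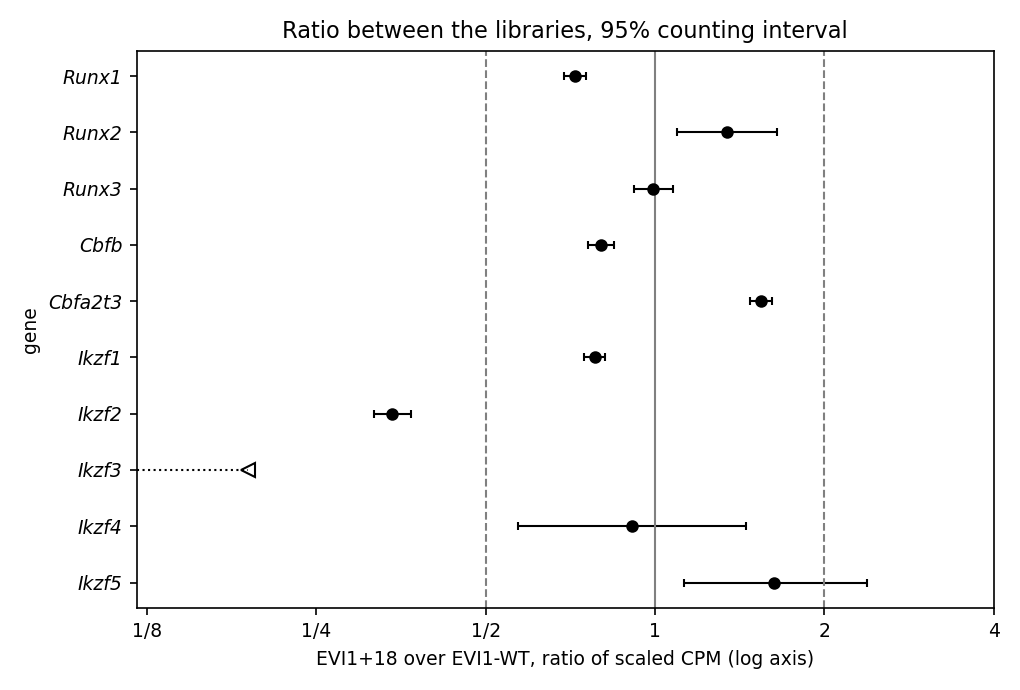
Ratio of scaled CPM, EVI1+18 over EVI1-WT, for each of the 10 genes on a log axis. Points are ratios, bars are 95% counting intervals, dashed lines mark 2-fold, and the open arrowhead marks the upper bound for Ikzf3, which had 0 counts in EVI1+18. Ikzf2 is the tested gene whose interval lies wholly beyond a dashed line, at 0.341.

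Runx1 (ENSMUSG00000022952; minus strand of GRCm38 chromosome 16, 92601466 to 92826149) had 3445 counts in EVI1+18 and 4464 in EVI1-WT. That is 161 scaled CPM in EVI1+18 against 223 in EVI1-WT, a 1.39-fold lower level with an interval of 1.33 to 1.45. Of all tested genes, 18.7% had a lower ratio than Runx1. Runx3 (ENSMUSG00000070691; plus strand of chromosome 4, 135120652 to 135177990) had 1292 counts in EVI1+18 and 1214 in EVI1-WT, or 60.2 scaled CPM in EVI1+18 against 60.6 in EVI1-WT. Its ratio was 0.993 with an interval of 0.918 to 1.08, and it changed side under other library scalings, so no direction is given. Runx2 (ENSMUSG00000039153; minus strand of chromosome 17, 44495987 to 44814797) was low, with 234 counts in EVI1+18 and 163 in EVI1-WT. Its 10.9 scaled CPM in EVI1+18 were 1.34-fold the 8.14 in EVI1-WT (1.09 to 1.65). The 3 alpha subunits thus took different directions, with Runx1 lower, Runx2 higher and Runx3 within counting error of equality.

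Per kilobase of exon, which allows genes of different length to be compared, Runx1 and Runx3 made up nearly all of the RUNX message. The Runx1 share of the family was 50.2% in EVI1+18 (48.6 to 51.7) and 58.7% in EVI1-WT (57.2 to 60.2). Runx3 accounted for 45.2% in EVI1+18 (43.6 to 46.8) and 38.4% in EVI1-WT (36.9 to 39.9), and Runx2 for 4.64% in EVI1+18 and 2.92% in EVI1-WT. These shares are free of library scaling but depend on the length used: with the longest annotated transcript in place of all annotated exons the Runx1 share was 61.4% in EVI1+18 and 69.3% in EVI1-WT. That the Runx1 share was lower in EVI1+18 follows under any length, since the Runx1 ratio was below those of Runx2 and Runx3. In ratios of raw counts within a library, where gene length cancels between the libraries, there were 2.67 Runx1 counts per Runx3 count in EVI1+18 and 3.68 in EVI1-WT, a change of 0.725-fold (0.662 to 0.794). The Runx2 counts per Runx1 count were 0.0679 in EVI1+18 and 0.0365 in EVI1-WT, a 1.86-fold change (1.51 to 2.30). These pairs, and those named further on, belong to 10 that were picked after the values were seen.

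**Figure D3:**
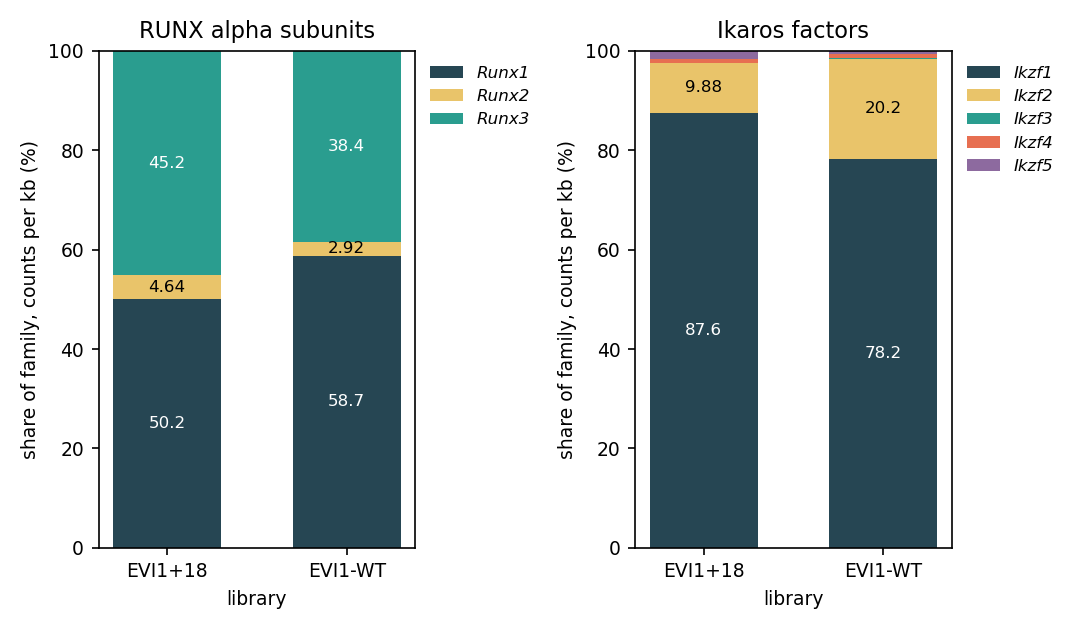
Share of each gene in its family's summed counts per kilobase of exon (%), in EVI1+18 and EVI1-WT, for the RUNX alpha subunits on one side and the Ikaros factors on the other. Runx1 takes 50.2% in EVI1+18 and 58.7% in EVI1-WT, and Ikzf2 takes 9.88% in EVI1+18 and 20.2% in EVI1-WT.

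Cbfb (ENSMUSG00000031885; plus strand of chromosome 8, 105170674 to 105217989), the partner of all 3 alpha subunits, was lower in EVI1+18 as Runx1 was. It had 2450 counts in EVI1+18 and 2851 in EVI1-WT, or 114 scaled CPM in EVI1+18 against 142 in EVI1-WT, a 1.25-fold lower level (1.18 to 1.32). The Runx1 counts per Cbfb count were 1.41 in EVI1+18 and 1.57 in EVI1-WT, a ratio of 0.898 (0.837 to 0.964), so Runx1 stood somewhat further below than Cbfb. Summed per kilobase, the alpha subunits reached 26.6 scaled CPM in EVI1+18 and 31.6 in EVI1-WT, beside 32.8 for Cbfb in EVI1+18 and 40.9 in EVI1-WT. The alpha sum was 0.811 of the Cbfb level in EVI1+18 and 0.772 of it in EVI1-WT. Over the longest transcript, a length tried after seeing the data, it was 1.13 of the Cbfb level in EVI1+18 and 1.11 of it in EVI1-WT, so which of them is the larger depends on the length used.

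Among RUNX cofactors and modifiers, 1 of 22 tested genes was at least 2-fold lower and 0 were higher. Over all tested genes 5.1% were lower and 5.05% higher. The log2 ratios of the list had a median of -0.07, beside 0.01 for all tested genes. The lower gene was Hipk2, a nuclear kinase that phosphorylates RUNX1 and its coactivator p300. It had 51.3 scaled CPM in EVI1+18 and 126 in EVI1-WT, 2.47-fold lower (2.30 to 2.65). The most abundant genes of the list moved little or upward: Cdk6, a cell cycle kinase that also binds RUNX1, was 1.71-fold higher (1.66 to 1.76), at 519 scaled CPM in EVI1+18 and 304 in EVI1-WT. The corepressor Ncor1 had a ratio of 0.952 and the short Groucho protein gene Tle5, listed as Aes, one of 0.983. The Groucho corepressors, singled out after their values were seen, differed among themselves. Tle1 had 22.6 scaled CPM in EVI1+18 and 49.7 in EVI1-WT, a ratio of 0.455 (0.407 to 0.508) that fell just short of the rule. Tle3 had 101 scaled CPM in EVI1+18 and 181 in EVI1-WT, 1.80-fold lower (1.71 to 1.90), and Tle4 was 1.20-fold higher (1.06 to 1.34). Tle2 was scarce, with 20 counts in EVI1+18 and 53 in EVI1-WT, a ratio of 0.352 (0.199 to 0.599). Runx1t1, the ETO gene itself, had 0 counts in both libraries, where 3 counts would be 0.14 scaled CPM in EVI1+18 and 0.15 in EVI1-WT.

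Cbfa2t3 (ENSMUSG00000006362; minus strand of chromosome 8, 122625141 to 122699109) had the highest ratio among the abundant factors. It had 5168 counts in EVI1+18 and 3127 in EVI1-WT, or 241 scaled CPM in EVI1+18 against 156 in EVI1-WT. The level was 1.54-fold higher, with an interval of 1.48 to 1.61, and 87.2% of tested genes had a lower ratio. Its paralog Cbfa2t2 was near equality, at 24.6 scaled CPM in EVI1+18 and 23.1 in EVI1-WT, a ratio of 1.06 (0.938 to 1.21). Hence the Cbfa2t3 counts per Cbfa2t2 count were 9.79 in EVI1+18 and 6.75 in EVI1-WT, a 1.45-fold change (1.27 to 1.66). Against Runx1, which went the other way, the Cbfa2t3 counts were the larger number in EVI1+18 and the smaller in EVI1-WT, a 2.14-fold change of their ratio (2.01 to 2.28). The antisense gene Gm10612 overlaps the start of Cbfa2t3 by 295 exon bases, 3.52% of the exon length of Cbfa2t3. Gm10612 itself had 115 counts in EVI1+18 and 152 in EVI1-WT, and without a stated strand setting, reads of that overlap cannot be assigned.

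The partners of ETO2 differed in direction, with 6 higher in EVI1+18. Of 17 partner genes, all tested, these 6 passed 2-fold upward and 0 downward, and the list's log2 ratios had a median of 0.47. Over all tested genes 5.05% were higher and 5.1% lower. The erythroid markers, mostly globin by level, summed to 13730 scaled CPM in EVI1+18 and 1796 in EVI1-WT and moved the same way. Their part in the values of Cbfa2t3 and its partners was not tested. Zfpm1, the GATA cofactor FOG1, had 397 scaled CPM in EVI1+18 and 53.4 in EVI1-WT, 7.44-fold higher (6.98 to 7.93). Klf1, the red-cell master regulator, was 7.11-fold higher (6.06 to 8.38), and Lmo2, the bridging protein of the complex, 3.38-fold. Gfi1b, a repressor of red-cell and platelet precursors, was 2.66-fold higher (2.41 to 2.95), Gata1 2.54-fold and Tal1, the E-box-binding subunit, 2.29-fold (2.18 to 2.41). Tal1 had 250 scaled CPM in EVI1+18 and 109 in EVI1-WT, and Gata1 157 in EVI1+18 and 61.7 in EVI1-WT. The scaffold Ldb1 differed little, with a ratio of 0.910 (0.864 to 0.959), and the E2A gene Tcf3 was 1.35-fold higher (1.28 to 1.43). Gata2, the GATA factor of stem cells and mast cells, was 2.04-fold lower, with 376 scaled CPM in EVI1+18 and 769 in EVI1-WT and an interval of 1.99 to 2.10. The ETS factors of the list, both active in platelet precursors and stem cells, also had ratios below 1, Fli1 0.603 (0.559 to 0.651) and Erg 0.660 (0.593 to 0.733), short of the rule. The ratio of Cbfa2t3 was smaller than that of Gata1: there were 1.54 Cbfa2t3 counts per Gata1 count in EVI1+18 and 2.53 in EVI1-WT, 1.65-fold fewer (1.52 to 1.78).

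**Figure D4:**
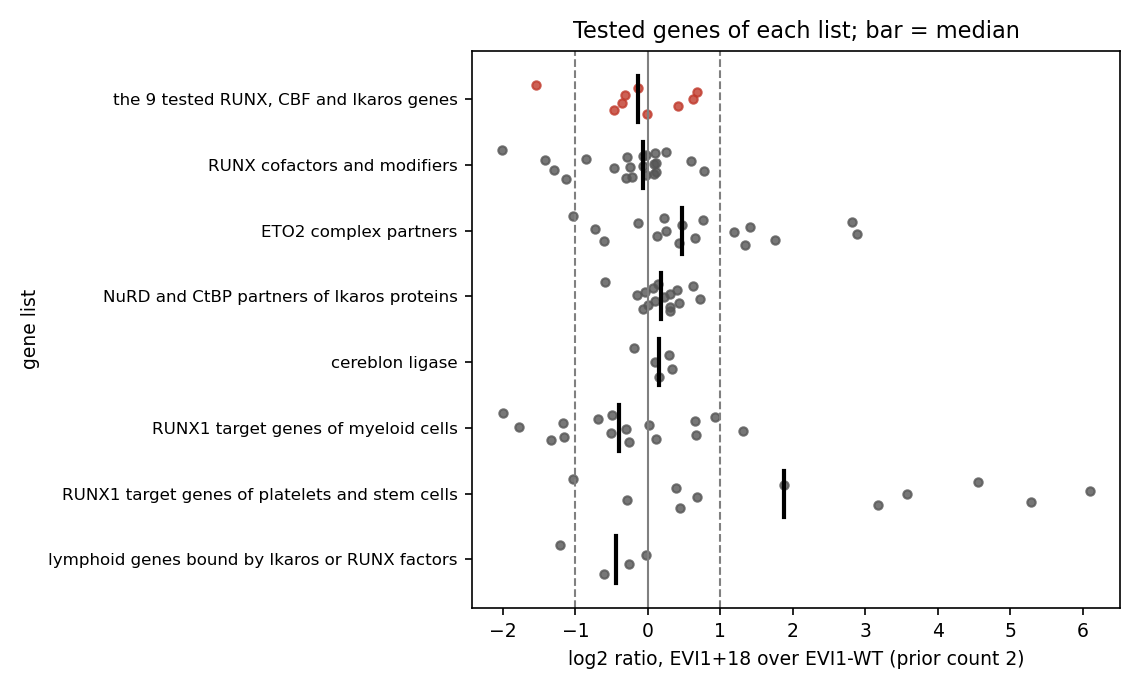
Log2 ratio (prior count 2), EVI1+18 over EVI1-WT, of each tested gene in 7 fixed lists and of the 9 tested RUNX, CBF and Ikaros genes, with 1 point a gene and a bar at the median. Dashed lines mark 2-fold. The ETO2 partner median lies at 0.47, that of RUNX cofactors at -0.07 and that of the 9 genes at -0.13.

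Ikzf1 (ENSMUSG00000018654; plus strand of chromosome 11, 11685003 to 11772926) was the main Ikaros gene in both libraries. It had 4140 counts in EVI1+18 and 4949 in EVI1-WT, or 193 scaled CPM in EVI1+18 against 247 in EVI1-WT, a 1.28-fold lower level (1.23 to 1.34). Ikzf2 (ENSMUSG00000025997; minus strand of chromosome 1, 69531214 to 69687245), which encodes Helios, fell furthest among the tested genes of the set. It had 939 counts in EVI1+18 and 2568 in EVI1-WT, that is 43.8 scaled CPM in EVI1+18 and 128 in EVI1-WT. The 2.93-fold lower level had an interval of 2.72 to 3.16, and 4.38% of tested genes had a lower ratio. Per kilobase, Helios supplied 9.88% of the Ikaros family message in EVI1+18 (9.26 to 10.5) and 20.2% in EVI1-WT (19.4 to 20.97), while Ikzf1 supplied 87.6% in EVI1+18 and 78.2% in EVI1-WT. There were 0.227 Ikzf2 counts per Ikzf1 count in EVI1+18 and 0.519 in EVI1-WT, 2.29-fold fewer (2.10 to 2.49), a value that needs no scaling. The mast cell and basophil markers were lower alongside Ikzf2, with a sum of 842 scaled CPM in EVI1+18 and 5651 in EVI1-WT, as were eosinophil and neutrophil markers, and their part in the Ikzf2 value was not tested. The family as a whole summed to 38.1 scaled CPM per kilobase in EVI1+18 and 54.7 in EVI1-WT.

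The remaining Ikaros genes were scarce. Ikzf3 (ENSMUSG00000018168; minus strand of chromosome 11, 98464902 to 98546031), the gene of the lymphocyte factor Aiolos, had 0 counts in EVI1+18 and 20 in EVI1-WT. At 0.999 scaled CPM in EVI1-WT it lay just under the filter and was not tested. Against the 3 counts that a count of 0 allows it was at least 7.14-fold lower in EVI1+18 if the 20 counts are taken as exact, and at least 5.29-fold lower by the counting interval, which includes their error. Ikzf4 (ENSMUSG00000002578; minus strand of chromosome 10, 128630843 to 128645991), for Eos, had 39 counts in EVI1+18 and 40 in EVI1-WT. Its ratio of 0.910 had an interval of 0.570 to 1.45, so a difference was not detectable at this depth. Ikzf5 (ENSMUSG00000040167; minus strand of chromosome 7, 131388652 to 131410521), for Pegasus, had 82 counts in EVI1+18 and 47 in EVI1-WT, a ratio of 1.63 (1.12 to 2.38).

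The Ikzf5 value is the least certain of the set. Of its exon bases, 81.3% are also exon bases of Pstk, a tRNA kinase gene on the opposite strand. Pstk had 244 counts in EVI1+18 and 215 in EVI1-WT, with a ratio of 1.06 (0.878 to 1.28), and 12.9% of the 50-base words of Ikzf5 recur in Gm10356, which had 29 counts in EVI1+18 and 34 in EVI1-WT. Reads from the shared stretch may have been given to either gene or to neither, so the level of Ikzf5 cannot be compared with that of its relatives. For the other 9 genes, at most 1.11% of such words (in Runx3) occurred in another gene's transcripts. Shared exon bases were at most 5.87% of the exon length, in Runx2, where the antisense gene Runx2os1 had 2 counts in EVI1+18 and 4 in EVI1-WT.

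Ordered by level per kilobase of exon, Ikzf1 and Cbfb stood first in both libraries. In EVI1+18 Ikzf1 was at 33.4 scaled CPM per kilobase (32.4 to 34.4) and Cbfb at 32.8 (31.5 to 34.1), intervals that overlap, followed by Cbfa2t3 at 28.8 (28.0 to 29.6). Runx1 came next with 13.4 (12.9 to 13.8), then Runx3 with 12.04 (11.4 to 12.7), Ikzf2 with 3.77 and Runx2 with 1.23. After Runx2 came Ikzf4 in both libraries, at 0.303 in EVI1+18 and 0.333 in EVI1-WT, and last Ikzf3. Ikzf5, listed at 0.668 in EVI1+18 and 0.410 in EVI1-WT, is given no place in the order because of the bases it shares with Pstk. In EVI1-WT Ikzf1 was at 42.8 (41.6 to 44.0) and Cbfb at 40.9 (39.4 to 42.4), again overlapping. There Cbfa2t3 at 18.6 (18.0 to 19.3) and Runx1 at 18.5 (18.0 to 19.1) could not be told apart, and Runx3 at 12.1 and Ikzf2 at 11.04 had intervals that met. Cbfa2t3 thus stood well clear of Runx1 in EVI1+18 and level with it in EVI1-WT. That last order depends on length: over the longest transcript Runx1 was at 27.4 in EVI1+18 and 38.0 in EVI1-WT, beside 31.5 for Cbfa2t3 in EVI1+18 and 20.4 in EVI1-WT.

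**Figure D5:**
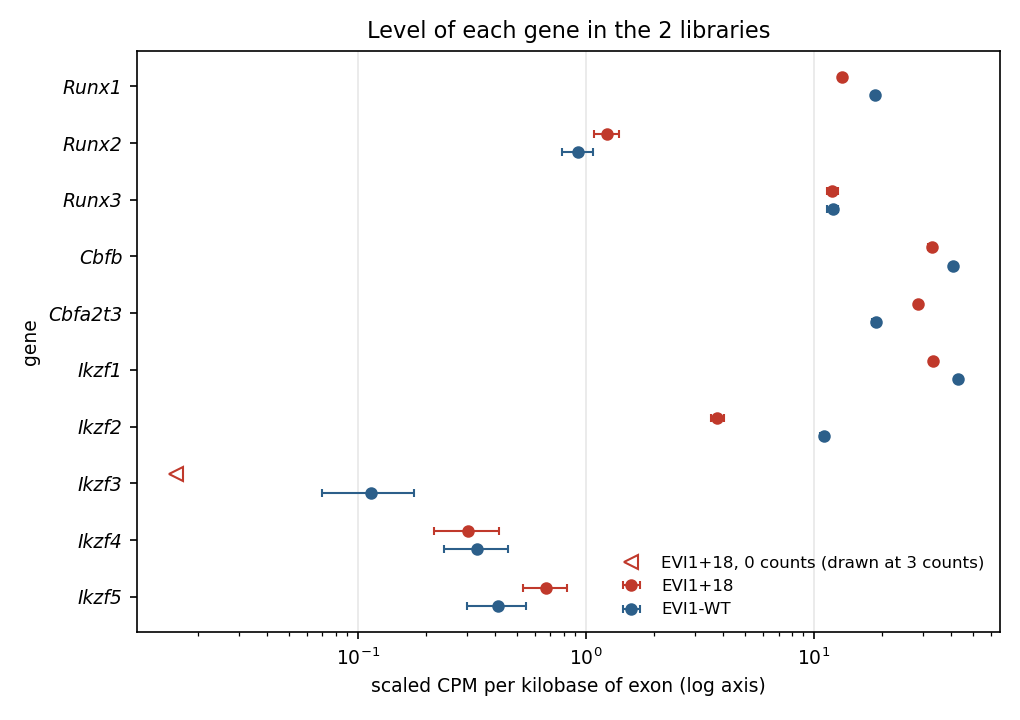
Scaled CPM per kilobase of exon (log axis) of the 10 genes in EVI1+18 and EVI1-WT, with 95% counting intervals as bars. Ikzf2 lies at 3.77 in EVI1+18 and 11.04 in EVI1-WT, and Ikzf3, with 0 counts in EVI1+18, is drawn there at 3 counts.

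Of 16 genes for the NuRD, CtBP and SIN3B machinery that Ikaros proteins recruit, all tested, 0 were called 2-fold apart, beside 10.1% of all tested genes. The median log2 ratio of the 16 was 0.18. The furthest apart, picked after their values were seen, were the corepressor gene Ctbp2 at 1.65-fold higher and the NuRD subunit gene Mta3 at 1.53-fold higher, and in the other direction the ATPase gene Chd3 at 1.51-fold lower (1.44 to 1.58). The remodelling ATPase Chd4, the most abundant, had 545 scaled CPM in EVI1+18 and 517 in EVI1-WT, a ratio of 1.05 (1.03 to 1.08). The histone-binding subunits Rbbp4 and Rbbp7 had ratios of 1.10 and 0.973. None of 5 genes of the cereblon ubiquitin ligase, through which lenalidomide-type drugs degrade IKZF1 and IKZF3 in human cells, was 2-fold apart (median log2 ratio 0.15). Ddb1 had a ratio of 1.07, Rbx1 1.23 and Cul4a 1.26. The other two, named after their values were seen, were the substrate receptor Crbn at 1.11 (0.991 to 1.24) and the second cullin gene Cul4b at 0.878 (0.802 to 0.961).

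Genes that RUNX1 has been reported to regulate in human or mouse cells differed in direction within each of a pair of lists, which were not tested against each other. Over all tested genes 5.1% were at least 2-fold lower and 5.05% higher. Of 16 granulocyte and macrophage genes, all tested, 5 were at least 2-fold lower and 1 higher, and the median of their log2 ratios was -0.39. Cebpe, a factor of late granulocyte maturation, was 4.03-fold lower (3.57 to 4.56), the cytokine receptor chain Csf2rb 3.43-fold and the Fc receptor Fcgr2b 2.52-fold. The granule protease gene Ctsg was 2.23-fold lower (2.16 to 2.30), as was the myeloid hexokinase Hk3 at 2.25-fold, whereas lysozyme, Lyz2, was 2.48-fold higher (2.44 to 2.52). The ratio was also above 1, short of the rule, for the macrophage receptor Csf1r at 1.91 (1.72 to 2.12), the granulocyte receptor Csf3r at 1.59 (1.36 to 1.86) and the granule protease Prtn3 at 1.58, named after their values were seen. Csf2rb and Lyz2 each have a close relative in the mouse genome, Csf2rb2 and Lyz1, whose reads may be shared with them. Of 11 tested platelet and stem cell genes, out of 13 in the list, 6 passed 2-fold upward and 0 downward. Their median was 1.88 on the log2 scale, which came to 0.68 both without a filter and at a minimum of 5 scaled CPM. They included the platelet chemokine Pf4, 70.2-fold higher, and the platelet receptor Gp1ba, 9.16-fold higher (7.91 to 10.7). The homeobox gene Meis1 was 30.6-fold higher (13.8 to 84.5). The lipoxygenase Alox12, with 48 counts in EVI1+18 and 2 in EVI1-WT, had a ratio of 22.4 (5.87 to 190). Itga2b, with 718 scaled CPM in EVI1+18 and 447 in EVI1-WT, was 1.61-fold higher (1.57 to 1.65), and Nfe2, a platelet and red-cell factor, 1.31-fold. Gata2 also stands in this list, 2.04-fold lower as given above, and the progenitor factor Myb had a ratio of 0.818 (0.783 to 0.855).

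The lymphoid genes for which Ikaros and RUNX factors are best known were scarcely detected, with few exceptions. Of 22 such genes, 4 were tested and 0 of these called 2-fold apart, beside 10.1% of all tested genes. All 4 had a ratio below 1 (median log2 ratio -0.43). Of the 22 genes, 10 had 0 counts in both libraries, among them Bcl11b, Cd4, Cd8a, Dntt, Ebf1, Pax5, Rag1, Rag2 and Tbx21. The interleukin 7 receptor Il7r was expressed, with 29.8 scaled CPM in EVI1+18 and 30.4 in EVI1-WT, a ratio of 0.983 (0.878 to 1.10). Zbtb7b, which directs helper T cells and is also found outside T cells, had a ratio of 0.835. The antigen receptor chain gene Cd79b was low, with 45 counts in EVI1+18 and 65 in EVI1-WT. Lck, the T cell kinase gene, had 29 counts in EVI1+18 and 65 in EVI1-WT, 2.40-fold lower (1.53 to 3.86) and short of the rule.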

How the data were processed

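The authors deposited raw read counts per Ensembl gene, 1 column per library. The submitters' processing notes name GRCm38 as the build and list edgeR, Subread, featureCounts, SAMtools and HISAT2 2.2.1. Not given in the sources used here are the annotation release, the strand setting and how multiply mapping reads were treated. Libraries were grouped by the vector in their labels and columns matched by name.

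Symbols, coordinates and exon lengths came from GENCODE release M21 (GRCm38), which matched 55227 of 55487 IDs. Unmatched IDs, 0.0171% of EVI1+18 counts and 0.0126% of EVI1-WT counts, stayed in the totals. Libraries were scaled by TMM (edgeR 4.0.16, R 4.3.3). With 1 library per group no quasi-likelihood test was possible. Each ratio has an exact (Clopper-Pearson) 95% interval (scipy 1.17.1), which covers counting error only and no variation between cultures. PCR reads lacking molecular identifiers may repeat a molecule, which would make the interval too narrow. Genes reaching 1 scaled CPM in either library were tested. A gene was counted as 2-fold apart when its whole interval lay beyond 2-fold. A count of 0 allows 3 counts. Log2 ratios used a prior count of 2. Shares of a family used counts per kilobase of all annotated exons. The calling rule was checked on simulated counts drawn with counting error only. That check does not cover variation between cultures or repeated PCR reads.

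All 10 members are named, and from each list of pathway genes up to 5 genes past 2-fold in each direction and the 3 most abundant. A few genes that this rule or a list would name are not reported here. The members, lists and motifs were chosen with earlier results of these data known. DESeq2 1.42.0 size factors, total counts, other filters, prior counts, folds and lengths were the alternatives.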

Additional observations from a re-analysis of the deposited data

How the results depend on the processing

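Ikzf2 stayed at least 2-fold lower in EVI1+18 under DESeq2 size factors and total counts. The other tested genes kept their side of 2-fold under both scalings. A filter leaves the interval of a gene unchanged, and Ikzf2 passed a minimum of 5 scaled CPM, so the filters could not change its call. The Runx3 ratio crossed equality, at 1.01 with DESeq2 size factors and 1.04 with total counts. Without a filter 2 of the 10 genes were at least 2-fold lower, Ikzf3 being the added one, with 0 counts in EVI1+18 and 20 in EVI1-WT. Over all 23475 genes with a count, 763 were then lower and 752 higher. Total counts shifted the median log2 ratio of all tested genes by 0.06. The platelet and stem cell list had a median log2 ratio of 0.68 without a filter and 0.68 at 5 scaled CPM, where 4 of its genes were higher, in place of 1.88 and 6. That minimum left 431 genes higher and 468 lower of 10585 tested, in place of 666 and 672 of 13183. At 1.5-fold, 5 RUNX cofactors were lower in place of 1 and 1 was higher in place of 0, 2 ETO2 partners were lower in place of 0, 3 myeloid genes were higher in place of 1, and 1 platelet and stem cell gene and 1 lymphoid gene were lower in place of 0. Under total counts 0 stem and progenitor markers were lower in place of 1. Over all genes at 1.5-fold 1093 were higher and 1290 lower.

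Family shares moved with gene length by construction. Over the longest transcript the Runx1 share was 61.4% in EVI1+18 and 69.3% in EVI1-WT, and in raw counts 69.3% in EVI1+18 and 76.4% in EVI1-WT. The Ikzf2 share was 10.9% in EVI1+18 and 22.001% in EVI1-WT over the longest transcript, and 18.1% in EVI1+18 and 33.7% in EVI1-WT in raw counts. Over the longest transcript, added after seeing the data, the summed RUNX alpha level was 1.13 of that of Cbfb in EVI1+18 and 1.11 in EVI1-WT, in place of 0.811 in EVI1+18 and 0.772 in EVI1-WT. The Runx1 and Ikzf2 shares were lower in EVI1+18 under each length, but this is no check of their direction. The Runx1 ratio was below those of Runx2 and Runx3, so no choice of length could raise its share. Ikzf2 had a lower ratio than every relative except the scarce Ikzf3, which left little room for another direction. No paired analysis was possible because each group has 1 library. Recomputed under each alternative, the medians of the marker lists gave 37 values within the range of their counting error and 7 outside it (erythroid, megakaryocyte, mast cell, monocyte and stem cell lists), with no change of sign. Depth limits the scarce genes: with 39 counts in EVI1+18 and 40 in EVI1-WT, the Ikzf4 interval ran to 0.570 and 1.45.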

Other observations

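Antisense transcripts at the Ikaros loci, looked at after the values of the main genes, were sparse. Gm29114, which runs opposite to Ikzf2 and shares 144 exon bases with it, had 1 count in EVI1+18 and 14 in EVI1-WT, a ratio of 0.0667 with an interval of 0.00158 to 0.438. Gm12000, antisense within Ikzf1 and sharing 0 exon bases with it, had 3 counts in EVI1+18 and 24 in EVI1-WT, a ratio of 0.117 (0.0225 to 0.384). At the Runx1 locus Gm26626 had 22 counts in EVI1+18 and 23 in EVI1-WT, a ratio of 0.893 (0.475 to 1.68). Supt3, the SAGA subunit gene that overlaps Runx2 on the opposite strand without sharing exon bases, had 348 counts in EVI1+18 and 267 in EVI1-WT, a ratio of 1.22 (1.03 to 1.43), beside 1.34 for Runx2. Without a known strand setting, reads of these transcripts and of the genes they face cannot be told apart where they overlap.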
